A study of Mus musculus with 6 samples.

Results

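Outer hair cells amplify sound by changing length, and nerve fibres from the brainstem hold that amplification in check. Described here are 7 genes, listed by symbol, of that machinery and of hair cell potassium channels. They are the motor gene Slc26a5, the calcium buffer gene Ocm, the acetylcholine receptor genes Chrna9 and Chrna10, and the potassium channel genes Kcnn2, Kcna10 and Kcnma1. Each symbol matched a single Ensembl gene ID, so that all 7 were found among the 55769 features of each library. They were measured in total RNA of whole mouse cochleae on postnatal day 3, in 3 libraries from Plscr5-/- (knockout) mice and 3 from wild type mice. Plscr5 encodes a member of the phospholipid scramblase family, and the comparison asked which transcripts differed when it was disrupted.

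The labels give no strain, sex or further allele, do not describe the knockout allele, and do not say whether a library is 1 animal or a pool, so the p-values cover the spread among these libraries only, which may be technical. Their extraction text mentions a line heterozygous for Pou4f3, a hair cell transcription factor, although the genotype field of every library reads Plscr5-/- or wild type. Pou4f3 stood at 35.82, 31.63 and 31.24 TPM in knockout replicates 1 to 3 and at 37.78, 33.89 and 36.46 TPM in wild type replicates 1 to 3, and the groups overlapped. TPM is a transcript abundance scaled for length to a total of 1000000 per library. It keeps no read depth, so no counting interval can be given. It allows levels to be compared between genes as far as reads were assigned to the right gene. For Chrna10 that is uncertain, as described below. Plscr5 averaged 4.33 ± 0.66 TPM in Plscr5-/- cochleae and 12.1 ± 2.6 TPM in wild type cochleae (SD, n = 3 each), so that 35.9% of its wild type level was left. Its log2 fold change of -1.28 was itself not called (limma adjusted p = 0.29). Wild type replicate 3 stood apart in nerve genes. The summed level of 12 neuronal genes was 848 to 1067 TPM in Plscr5-/- cochleae, 770 and 883 TPM in wild type replicates 1 and 2, and 489 TPM in wild type replicate 3. That of 10 Schwann cell genes was 1509 to 2331 TPM in Plscr5-/- cochleae, 1392 and 1494 TPM in wild type replicates 1 and 2, and 525 TPM in wild type replicate 3. Not all of these genes fell there. In wild type replicates 1 to 3 the neuronal genes Isl1 and Syt1 stood at 217.93, 206.96 and 244.91 TPM and at 69.57, 63.84 and 68.03 TPM. The Schwann cell gene Sox10 stood at 203.99, 206.41 and 186.1 TPM. The neuronal sum therefore fell less than most of its genes.

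In the mouse, prestin, the protein encoded by Slc26a5, sits in the lateral membrane of the outer hair cell and shortens or lengthens the cell with voltage. Efferent fibres release acetylcholine onto a receptor built from alpha9 and alpha10 subunits. Calcium enters through that receptor and opens the SK2 potassium channel, encoded by Kcnn2, which hyperpolarizes the cell. In rodents this receptor is already found in hair cells around birth, while prestin and the large-conductance BK channel, encoded by Kcnma1, build up as hearing matures.

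At postnatal day 3 the receptor, the SK2 channel and the buffer were well detected, while the motor and the BK channel were low. Over all 6 libraries the mean level was 43.4 TPM for Chrna10, 25.7 TPM for Ocm, 17.7 TPM for Kcna10, 14.6 TPM for Kcnn2, 8.71 TPM for Chrna9, 3.24 TPM for Kcnma1 and 2.42 TPM for Slc26a5. The highest mean was 17.95 times the lowest. The ranges over the 6 libraries did not overlap between neighbours in this order, with 2 exceptions. Kcna10 was above Kcnn2 in 5 of 6 libraries, and Kcnma1 was above Slc26a5 in 5 of 6, so neither pair was separated by its spread.

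Set beside 18 genes of hair cells in general, the 7 genes lay below the 5 highest. Chrna10 lay below Smpx and above Rbm24, among genes such as Myo7a, a stereocilia myosin, at a mean of 34.7 TPM. Kcnma1 and Slc26a5 lay below all 18, the lowest of which were Xirp2 at 6.13 TPM and Tmc1, a mechanotransduction channel gene, at 6.17 TPM. As a share of the median of the 18 genes in the same library, Slc26a5 averaged 6.53% in Plscr5-/- cochleae and 7.87% in wild type cochleae, and Kcnma1 averaged 10.4% and 9.09% in Plscr5-/- and wild type cochleae. Chrna10 averaged 130.4% in Plscr5-/- cochleae and 129% in wild type cochleae. Of all 17097 features that passed the filter of at least 1 TPM in at least 3 libraries, 13.7% lay below Slc26a5 and 18.2% below Kcnma1 in mean level. With a single age, these values say which genes were low on day 3 and nothing about their course.

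**Figure D1:**
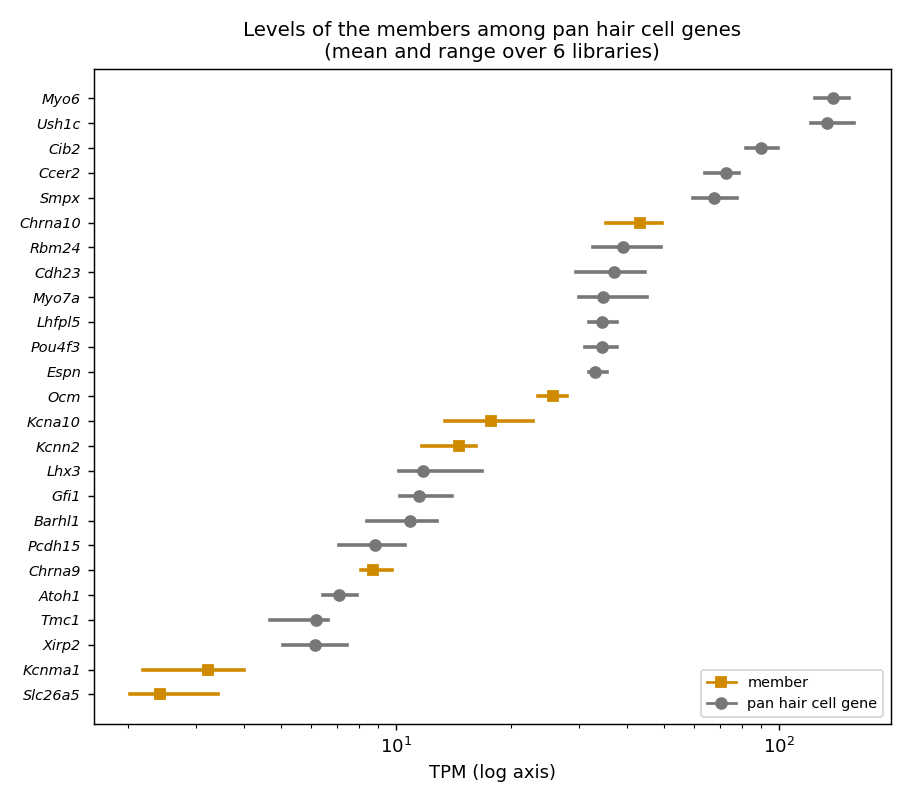
Mean (marker) and range (line) over 6 libraries of the 7 genes (squares) and 18 pan hair cell genes (circles), in TPM on a log axis. Kcnma1 and Slc26a5 lie below every pan hair cell gene, and Chrna10 lies among the upper ones.

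None of the 7 genes differed between genotypes past the threshold. All 7 passed the filter, and 0 were called by limma at a Benjamini-Hochberg adjusted p under 0.05 over all 17097 features (adjusted p from 0.989 to 0.998), where 2 features, or 0.0117%, were called. At an unadjusted limma p under 0.05 there was 1 gene, Kcna10, against 684 of all 17097 features (4.0%). Differences were taken on log2(TPM + 1), where changes of low genes come out too small. By this measure 5 genes had a negative and 2 a positive difference, knockout minus wild type. Their median was -0.07, and that of all tested features was -0.01. All 95% confidence intervals lay within a 2-fold change of TPM + 1 in either direction. At low genes such as Slc26a5 this is not a bound of 2-fold on TPM itself. The groups did not overlap at 2 of the 7 genes, Kcna10 and Slc26a5, both lower in Plscr5-/- cochleae. Over all features 9.33% had groups that did not overlap, and 4.74% had them lower in Plscr5-/- cochleae. In whole cochleae, fewer hair cells and less RNA per hair cell cannot be told apart. The median log2 fold change was also -0.19 over 8 supporting cell genes, 0.04 over 6 mesenchyme and fibrocyte genes and 0.79 over 12 neuronal genes. The part of tissue makeup in the values of the 7 genes was not tested.

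**Figure D2:**
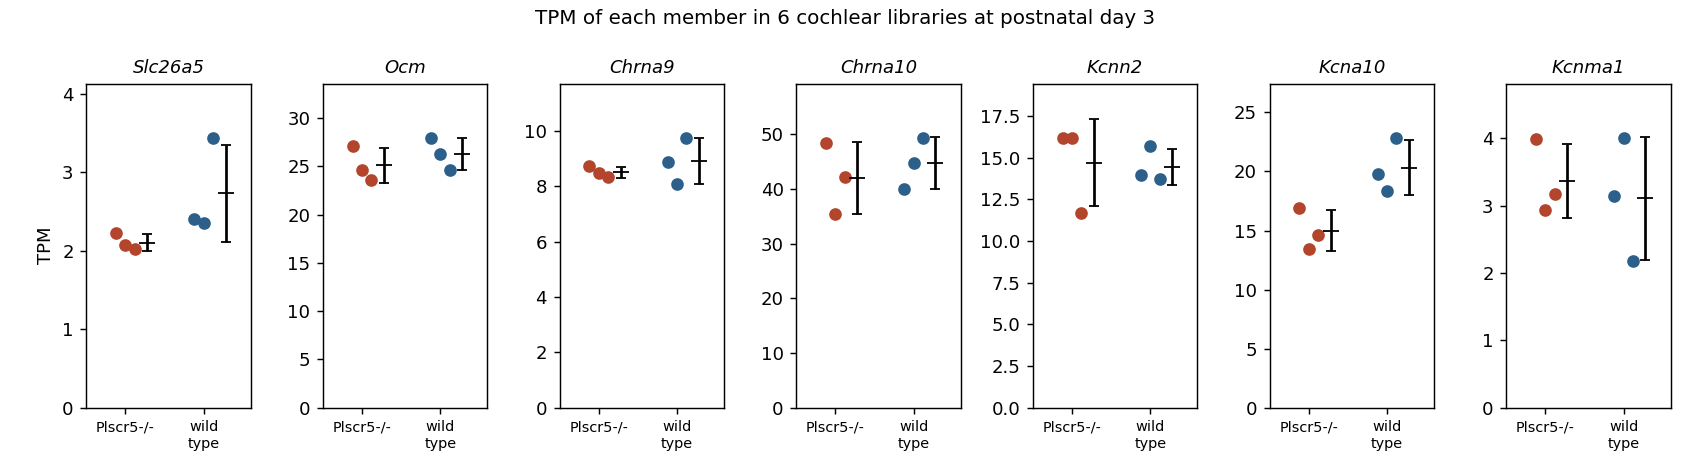
TPM of each gene in each library, on linear axes that start at 0, with Plscr5-/- libraries left of wild type libraries. Points are libraries in replicate order, and the bar beside them is the mean and SD of 3; Kcna10 and Slc26a5 are the 2 genes whose groups do not overlap.

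Slc26a5, the motor gene, stood at 2.22, 2.07 and 2.02 TPM in Plscr5-/- cochleae, against 2.40, 2.35 and 3.44 TPM in wild type cochleae. The groups did not overlap, but the gap was narrow apart from wild type replicate 3, which was the highest library. The log2 fold change was -0.25 (SE 0.18, 95% confidence interval -0.66 to 0.16, limma adjusted p = 0.989), and without wild type replicate 3 it was -0.12. The interval runs from 0.631 to 1.11 times the wild type level of TPM + 1. The exact permutation p, two-sided, was 0.1, which 3 against 3 cannot go below.

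The start of Slc26a5 and that of Kcna10 are shown, since these were the 2 genes without overlap between genotypes. They are 300-base stretches of RefSeq on GRCm38.p6, from 250 bases before the annotated start to 50 bases after it, written 5′ to 3′ on the gene's strand. Slc26a5 is chr5:21865555-21865854 on the minus strand, and Kcna10 is chr3:107182893-107183192 on the plus strand. The build named in the submitters' processing notes is another, mm8. Capitals mark the E-box CAGNTG, read on both strands.
Slc26a5: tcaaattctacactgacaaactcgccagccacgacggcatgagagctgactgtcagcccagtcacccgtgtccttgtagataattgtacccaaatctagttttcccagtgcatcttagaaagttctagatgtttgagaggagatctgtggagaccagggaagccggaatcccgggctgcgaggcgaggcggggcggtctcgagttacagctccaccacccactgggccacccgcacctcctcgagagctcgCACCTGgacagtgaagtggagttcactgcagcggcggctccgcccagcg
Kcna10: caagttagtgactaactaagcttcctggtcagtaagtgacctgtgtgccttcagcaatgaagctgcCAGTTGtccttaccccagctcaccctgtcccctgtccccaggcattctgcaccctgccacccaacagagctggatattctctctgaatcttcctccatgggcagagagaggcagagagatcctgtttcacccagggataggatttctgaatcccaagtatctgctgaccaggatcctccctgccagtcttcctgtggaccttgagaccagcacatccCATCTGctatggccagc

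The Slc26a5 stretch held 18 CG dinucleotides, more than 70.3% of the 32851 promoter stretches of the same length in the RefSeq table, and the Kcna10 stretch held 0, against a median of 7. The E-box CAGNTG occurred once in Slc26a5 and at 2 places in Kcna10, and 51.42% of all stretches held it. Neither stretch held TATAAA, found on either strand in 13.62% of all stretches, or TAATTA, found in 5.29%. Among the other members with a stretch in the table, Kcnma1 had 36 CG dinucleotides, Chrna9 had 6, Chrna10 had 1 and Ocm had 1. These letters describe the windows and say nothing of which factors bind there.

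The other genes of the SLC26 anion transporter family, to which prestin belongs, were not called either. Of 11 family genes 9 passed the filter, 0 were called by limma, and 0 had an unadjusted p under 0.05. Slc26a5 was among the 8 with a negative log2 fold change, and the family median was -0.09. Slc26a11 was the highest, at 15.5 ± 1.4 TPM in Plscr5-/- cochleae and 15.8 ± 0.8 TPM in wild type cochleae, followed by Slc26a7, an exchanger of Cl- and HCO3-, at 10.7 ± 2.4 and 11.2 ± 1.2 TPM in Plscr5-/- and wild type cochleae. Slc26a4, the pendrin gene of the endolymphatic epithelium, stood at 5.93 ± 0.89 TPM in Plscr5-/- cochleae and 6.34 ± 1.65 TPM in wild type cochleae, above Slc26a5.

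Ocm encodes oncomodulin, a parvalbumin-type calcium buffer that marks outer hair cells in the cochlea. It stood at 27.08, 24.63 and 23.53 TPM in Plscr5-/- cochleae and at 27.96, 26.24 and 24.66 TPM in wild type cochleae. This was the narrowest spread of the 7 genes, with the highest library at 1.19 times the lowest, and the groups overlapped. The log2 fold change was -0.07 (SE 0.09, 95% confidence interval -0.28 to 0.15). Ocm was 11.6 to 12.2 times Slc26a5 in Plscr5-/- cochleae and 7.17 to 11.7 times Slc26a5 in wild type cochleae, where replicate 3 gave the lowest ratio.

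Other buffer and calcium store genes were measured beside Ocm, 12 with it, of which 11 were tested and 0 called by limma. Calb1, the calbindin gene, had the 1 unadjusted p under 0.05 (0.0057), at 195 ± 9 TPM in Plscr5-/- cochleae and 235 ± 16 TPM in wild type cochleae with no overlap. Pvalb, the gene for the parvalbumin relative that neurons also express, stood at 182.29, 169.97 and 141.59 TPM in Plscr5-/- cochleae and at 128.89, 141.75 and 55.41 TPM in wild type cochleae. The low value was that of wild type replicate 3, the library low in nerve genes. Of the genes for calcium release and uptake, Atp2a2, an endoplasmic reticulum calcium pump, stood at 113 ± 26 and 127 ± 19 TPM, and Ryr2, a release channel, at 1.997 ± 0.37 and 1.62 ± 0.39 TPM, in Plscr5-/- and wild type cochleae. The median log2 fold change of the 11 was -0.07.

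Chrna9 encodes the subunit that alone can form a channel, and Chrna10 the subunit that joins it in the efferent receptor. Chrna9 stood at 8.73, 8.47 and 8.34 TPM in Plscr5-/- cochleae, against 8.89, 8.08 and 9.76 TPM in wild type cochleae. The knockout values lay inside the wild type range (log2 fold change -0.06, SE 0.12, 95% confidence interval -0.33 to 0.22). Chrna10 stood at 48.48, 35.42 and 42.24 TPM in Plscr5-/- cochleae, against 40.00, 44.79 and 49.40 TPM in wild type cochleae. The groups overlapped and both varied (log2 fold change -0.09, SE 0.13, 95% confidence interval -0.39 to 0.21). In every library Chrna10 was above Chrna9, by 4.93 ± 0.70 times in Plscr5-/- cochleae and 5.03 ± 0.52 times in wild type cochleae (SD, n = 3 each), and the ratio did not differ beyond its spread (two-sided exact permutation p = 1).

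Both subunits carry the pair of adjacent cysteines that defines alpha subunits of nicotinic receptors, at the edge of the acetylcholine site. The coding bases around that pair are shown because they hold the longest run of bases that the 2 genes have in common. The stretches come from the GENCODE M21 transcripts, 5′ to 3′ in coding sense, from base 628 to 687 of the coding sequence of Chrna9 on chromosome 5 and from base 625 to 684 of that of Chrna10 on chromosome 7. Capitals mark the 2 cysteine codons, codon 219 onward in Chrna9 and codon 218 onward in Chrna10.
Chrna9: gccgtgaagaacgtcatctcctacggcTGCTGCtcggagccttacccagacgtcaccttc
Chrna10: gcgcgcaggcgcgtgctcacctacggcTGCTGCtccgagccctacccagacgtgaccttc

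That run was 16 bases long and includes the cysteine codons. Over 1329 aligned coding bases, 64.56% were identical, and no 31-base word of a Chrna9 transcript occurred in a transcript of another gene. For Chrna10, 36.87% of its 31-base words lay in Art1 on the opposite strand. Whether strand was used in counting is not given in the sources used here, so Chrna10 is uncertain by that overlap. Art1 itself stood at 5.41, 2.99 and 3.89 TPM in Plscr5-/- cochleae and at 3.83, 3.52 and 4.98 TPM in wild type cochleae.

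Among 16 nicotinic subunit genes Chrna10 was the highest. Of these 9 passed the filter, 5 with a positive and 4 with a negative log2 fold change, and 0 were called or had an unadjusted limma p under 0.05. Their median was 0.10, both alpha9 and alpha10 being on the negative side. Chrnb1, the beta subunit of the muscle receptor, was second at 24.8 ± 0.2 TPM in Plscr5-/- cochleae and 28.7 ± 4.0 TPM in wild type cochleae, with no overlap. Chrna1 and Chrng, also of the muscle receptor, stood at 5.02 ± 0.69 and 3.68 ± 0.94 TPM in Plscr5-/- cochleae and at 5.48 ± 0.47 and 3.03 ± 0.85 TPM in wild type cochleae. The summed level of 7 skeletal muscle genes was 3.85 to 7.14 TPM in Plscr5-/- cochleae and 4.12 to 7.79 TPM in wild type cochleae. Tnnt3 and Mylpf were the 2 that passed the filter. Tnnt3 stood at 2.44 ± 1.38 and 2.71 ± 0.39 TPM, and Mylpf at 2.06 ± 1.08 and 2.62 ± 1.46 TPM, in Plscr5-/- and wild type cochleae. Ckm was at most 0.23 TPM in any library. The neuronal subunit gene Chrnb2 stood at 6.87 ± 0.66 and 5.41 ± 1.41 TPM in Plscr5-/- and wild type cochleae, and Chrna4 at 3.35 ± 0.78 TPM in Plscr5-/- cochleae and 2.43 ± 0.64 TPM in wild type cochleae. Chrna6 was listed at 0 in all 6 libraries.

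**Figure D3:**
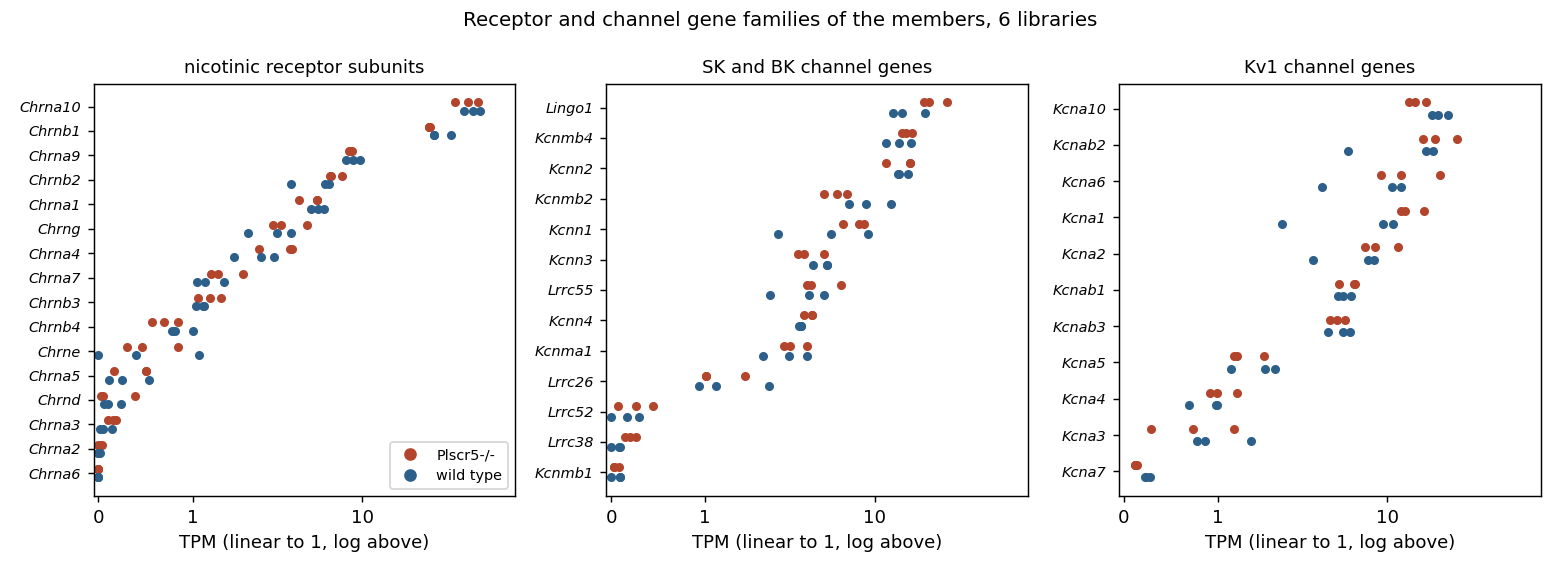
TPM of nicotinic receptor subunits, of SK and BK channel genes with their partners, and of Kv1 channel genes in 3 Plscr5-/- libraries (upper row of each gene) and 3 wild type libraries (lower row), on an axis linear to 1 TPM and logarithmic above. Chrna10 leads the receptor genes, and the lone low wild type point of Kcna1, Kcna2, Kcna6 and Kcnab2 is replicate 3.

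On the presynaptic side of the efferent synapse, the marker genes of acetylcholine synthesis and loading, Chat and Slc18a3, were listed at 0 in all 6 libraries. The cell bodies of these fibres lie in the brainstem, outside the tissue. Whether that bears on the levels of Chat and Slc18a3 was not tested. Nor was it tested which cells the RNA of Slc5a7 and the other genes below came from. Slc5a7, which takes up choline, was present at 6.25, 6.58 and 5.87 TPM in Plscr5-/- cochleae and at 8.32, 7.73 and 7.44 TPM in wild type cochleae. Its groups did not overlap, and its log2 fold change of -0.29 was not called (unadjusted p = 0.0454, limma adjusted p = 0.989). Ache, the acetylcholinesterase gene, stood at 16.92, 13.07 and 10.89 TPM in Plscr5-/- cochleae and at 8.77, 11.68 and 2.76 TPM in wild type cochleae, the last value being that of wild type replicate 3. Tmem35a, a chaperone of some nicotinic receptors, stood at 9.47 ± 0.31 TPM in Plscr5-/- cochleae and 7.04 ± 1.69 TPM in wild type cochleae without overlap, and was lowest in wild type replicate 3 at 5.19 TPM (unadjusted p = 0.047, limma adjusted p = 0.989). Rapsn, the gene of the receptor anchor rapsyn, was near 1 TPM, at 1.19 ± 0.34 and 1.13 ± 0.23 TPM in Plscr5-/- and wild type cochleae. In all, 7 of these 9 genes were tested, receptor genes included, 3 positive and 4 negative, with a median log2 fold change of -0.06 and 0 calls by limma. The part of the low nerve gene level of wild type replicate 3 in these values was not tested.

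Kcnn2, the SK2 gene that turns the receptor's calcium into inhibition, stood at 16.20, 16.21 and 11.71 TPM in Plscr5-/- cochleae and at 13.96, 15.69 and 13.73 TPM in wild type cochleae. The knockout libraries were both the highest and the lowest, so that the means of 14.7 ± 2.6 TPM in Plscr5-/- and 14.5 ± 1.1 TPM in wild type cochleae differed by less than the spread (log2 fold change 0.01, SE 0.14, 95% confidence interval -0.32 to 0.34). Kcnn2 was 1.72 ± 0.28 times Chrna9 in Plscr5-/- cochleae and 1.64 ± 0.27 times Chrna9 in wild type cochleae. It was the highest of the 4 SK family genes. Kcnn1 followed at 7.75 ± 1.12 TPM in Plscr5-/- cochleae and 5.80 ± 3.24 TPM in wild type cochleae, with 2.70 TPM in wild type replicate 3. Kcnn3 stood at 4.13 ± 0.81 and 4.93 ± 0.54 TPM, and Kcnn4 at 4.12 ± 0.25 and 3.63 ± 0.06 TPM, in Plscr5-/- and wild type cochleae. Of the 31-base words of Kcnn2 transcripts, 7.56% lay in annotated genes on the opposite strand. A330093E20Rik and AC121957.1, which held most of them, were each at most 0.88 TPM.

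Kcnma1, the BK channel gene, which hair cells, neurons and smooth muscle all use, stood at 3.99, 2.93 and 3.18 TPM in Plscr5-/- cochleae and at 3.14, 4.01 and 2.18 TPM in wild type cochleae. Its range was the widest in relative terms, the highest library being 1.84 times the lowest, and the groups overlapped. The log2 fold change was 0.10 (SE 0.21, 95% confidence interval -0.37 to 0.58), and without wild type replicate 3 it was -0.07. That library was the lowest for Kcnma1 and for nerve genes alike, while its 6 smooth muscle genes summed to 25.8 TPM, against 18.3 and 20.5 TPM in wild type replicates 1 and 2 and 19.6 to 21.9 TPM in Plscr5-/- cochleae. The part of either in the value of Kcnma1 was not tested. Of the smooth muscle markers, Des was the highest, at 16.0 ± 1.3 TPM in Plscr5-/- cochleae and 15.8 ± 1.6 TPM in wild type cochleae. Tagln stood at 2.96 ± 0.42 and 3.20 ± 0.79 TPM, and Acta2 at 1.30 ± 0.51 and 1.74 ± 1.15 TPM, in Plscr5-/- and wild type cochleae. Myh11 and Cnn1 were at most 0.64 and 0.55 TPM. Of the 31-base words of Kcnma1 transcripts, 5.94% lay in annotated genes on the opposite strand and 0.37% on the same strand. The gene 4930519K11Rik, which held most of them, was at most 0.26 TPM.

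Of the partner genes of the BK channel, Kcnmb4, Kcnmb2, Lingo1 and Lrrc55 had higher mean levels than the pore gene. Kcnmb4, a beta subunit typical of neurons, stood at 15.5 ± 1.0 TPM in Plscr5-/- cochleae and 14.0 ± 2.4 TPM in wild type cochleae. Kcnmb2, an inactivating beta subunit, stood at 6.86, 6.0 and 5.02 TPM in Plscr5-/- cochleae, against 8.88, 12.43 and 7.08 TPM in wild type cochleae. Its groups did not overlap, the lowest wild type value being only slightly above the highest knockout value (log2 fold change -0.56, SE 0.20, unadjusted p = 0.0248, limma adjusted p = 0.989). Lingo1, whose protein can bind the BK channel, stood at 22.3 ± 3.8 TPM in Plscr5-/- cochleae and 15.7 ± 3.7 TPM in wild type cochleae (log2 fold change 0.50, SE 0.18, unadjusted p = 0.0234, limma adjusted p = 0.989), with overlap and with its lowest value, 12.79 TPM, in wild type replicate 3. Kcnmb1 was at most 0.10 TPM. Of 13 SK and BK genes 10 were tested, 7 positive and 3 negative, with a median of 0.12 and 0 calls by limma.

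Kcna10, a voltage-gated channel gene of the Kv1 family expressed in hair cells of the inner ear, showed the largest difference of the 7. It stood at 16.87, 13.45 and 14.64 TPM in Plscr5-/- cochleae, against 19.82, 18.32 and 22.86 TPM in wild type cochleae. Every knockout library lay below every wild type library, and the knockout mean of 15.0 ± 1.7 TPM was 73.7% of the wild type mean of 20.3 ± 2.3 TPM (SD, n = 3 each). The log2 fold change was -0.42 (SE 0.12, 95% confidence interval -0.70 to -0.13). Its unadjusted limma p of 0.0101 ranked 106 among 17097 features, and its adjusted p was 0.989, so it was not called. The two-sided exact permutation p was 0.1, the smallest that 3 against 3 can give. When single libraries were left out, the log2 fold change ran from -0.50 to -0.33.

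The other Kv1 genes include channels of nerve. Kcna1, a gene of axons, stood at 16.40, 12.62 and 12.06 TPM in Plscr5-/- cochleae and at 9.36, 10.78 and 2.40 TPM in wild type cochleae, and Kcna6 stood at 20.42, 11.95 and 9.19 TPM in Plscr5-/- cochleae and at 10.64, 12.02 and 4.09 TPM in wild type cochleae. For both, wild type replicate 3 was the lowest library, whereas for Kcna10 it was the highest. Kcna2 stood at 9.14 ± 2.19 TPM in Plscr5-/- cochleae and 6.55 ± 2.54 TPM in wild type cochleae, and the beta subunit gene Kcnab2 at 20.4 ± 5.0 TPM in Plscr5-/- cochleae and 13.7 ± 6.9 TPM in wild type cochleae. Wild type replicate 3 was the lowest library for both, and its part in these values was not tested. Of 11 Kv1 and beta subunit genes 8 were tested, 5 positive and 3 negative, with a median of 0.28. None was called by limma, and Kcna10 was the 1 with an unadjusted p under 0.05. Of the 31-base words of Kcna10, 1.92% also occurred in transcripts of its relatives Kcna3 and Kcna6. Kcna3 held 36 of these words, and Kcna6, whose levels are given above, held fewer. Kcna3 stood at 0.76 ± 0.48 TPM in Plscr5-/- cochleae and 1.07 ± 0.43 TPM in wild type cochleae.

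Hair cells express the members, but not every member is particular to them, as neurons and smooth muscle also use Kcnma1. RNA of whole cochleae does not show which cells the RNA of the other members, such as Kcnn2, came from. With that limit, the members were set against genes that mark hair cells in general. The summed level of those genes was 723 to 758 TPM in Plscr5-/- cochleae and 762 to 860 TPM in wild type cochleae. The log2 fold change was negative for 15 of 18 pan hair cell genes (median -0.13), and 0 were called by limma, with 2 (Smpx and Ush1c) at an unadjusted p under 0.05. Hair bundle genes, several of them in this list, were known from earlier work on these data to lean lower. All 8 supporting cell genes also had a negative log2 fold change (median -0.19), so the lean was not limited to hair cell genes. The mean deviation of the 18 genes on the log2 scale was -0.05, -0.10 and -0.03 in knockout replicates 1 to 3 and 0.06, -0.04 and 0.16 in wild type replicates 1 to 3. After each library was shifted by this deviation, which adds 0.12 to every log2 fold change and moves the median of all features to 0.11, the members ran as follows. Kcna10 had -0.30 and was still lower in every knockout library than in every wild type library (two-sided exact permutation p = 0.1). Slc26a5 had -0.13 with overlap, Kcnn2 0.13 and Kcnma1 0.23. Ocm, Chrna9 and Chrna10 changed sign, to 0.055, 0.07 and 0.03. None was called.

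**Figure D4:**
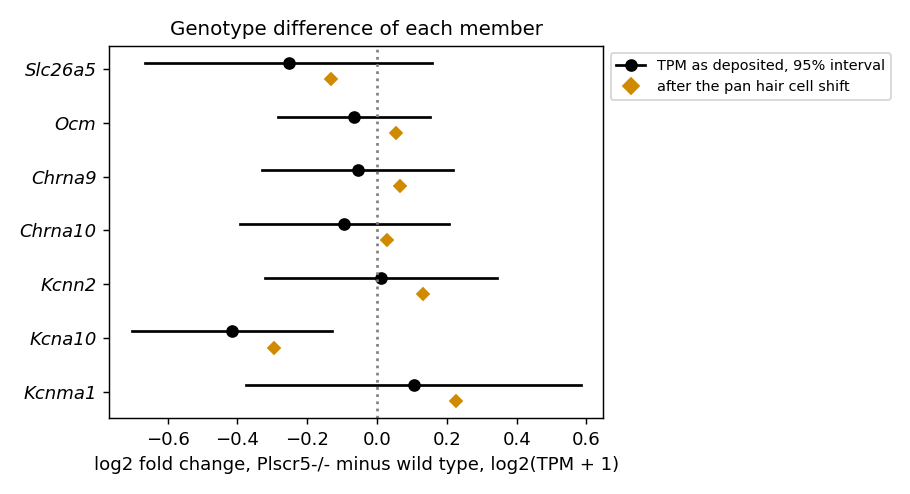
Log2 fold change, Plscr5-/- minus wild type, of each gene on the log2(TPM + 1) scale, with its 95% confidence interval (circles), and the value after the pan hair cell shift (diamonds). Of the 7 intervals for the deposited TPM, that of Kcna10 (-0.70 to -0.13) is the 1 that does not include 0; these intervals are not adjusted for the number of features.

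Other genes enriched in outer hair cells were not called either. Of 10 listed, 8 were tested, 7 negative and 1 positive, with a median of -0.05 and 0 calls by limma. Ikzf2, a transcription factor of outer hair cell identity, stood at 5.41 ± 0.14 and 5.72 ± 1.06 TPM in Plscr5-/- and wild type cochleae. Strip2 stood at 34.8 ± 0.7 TPM in Plscr5-/- cochleae and 41.1 ± 4.6 TPM in wild type cochleae with no overlap (log2 fold change -0.23, unadjusted p = 0.0468, limma adjusted p = 0.989). Neurod6 was listed at 0 in all libraries. Of 7 inner hair cell genes, all tested, 4 were positive and 3 negative (median 0.04, 0 with an unadjusted limma p under 0.05). Calb2, the highest of the 7, stood at 236 ± 15 TPM in Plscr5-/- cochleae and 190 ± 53 TPM in wild type cochleae, with overlap (log2 fold change 0.35). Its lowest value, 131.34 TPM, was in wild type replicate 3. Otof, the gene of the synaptic calcium sensor otoferlin, stood at 71.27, 68.80 and 71.62 TPM in Plscr5-/- cochleae and at 72.98, 74.45 and 92.55 TPM in wild type cochleae. It was the 1 gene of the 7 without overlap (log2 fold change -0.17), with its highest value in wild type replicate 3.

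The remaining marker lists describe what else the tissue held. The median log2 fold change was 0.79 over 12 neuronal genes, 0.80 over 10 Schwann cell genes, -0.19 over 8 supporting cell genes and 0.04 over 6 mesenchyme and fibrocyte genes. It was -0.07 over the 3 tested smooth muscle genes, -0.19 over the 2 tested skeletal muscle genes and 0.05 over the 6 tested macrophage and B cell genes. None of these genes was called by limma. In wild type replicate 3 the median deviation from the mean of 6 libraries was -1.38 over the neuronal and -1.47 over the Schwann cell genes on the log2 scale, against -0.0014 and 0.10 in wild type replicate 1 and 0.23 and 0.16 in wild type replicate 2. Over all 16 lists, 10 of the 124 tested genes other than the 7 had an unadjusted p under 0.05, 8 of them lower and 2 higher, where 684 of all 17097 features (4.0%) did. The lists share cell types and were chosen with earlier results known, so this count supports nothing about them.

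The genes whose pattern over the 6 libraries was most like that of each member were found by the root mean square difference of log2(TPM + 1) after centring. The candidates were 11903 or 11904 tested protein-coding genes with a mean of at least 5 TPM. For Slc26a5 they were Ttll10 (0.033) and Rgs9 (0.041), for Ocm Copb1 (0.011) and Rbck1 (0.014), and for Chrna9 Stc1 (0.014) and Atg14 (0.016). Chrna10 was closest to Chkb (0.029) and Prrx2 (0.031), Kcnn2 to Csf1 (0.051) and Cacnb3 (0.053), Kcna10 to Hpgds (0.044) and Gm9922 (0.063), and Kcnma1 to Pld5 (0.021) and Plekhh3 (0.050). No member was among the closest of another, but Slc26a5 and Kcnma1 averaged under 5 TPM and were not candidates. These are descriptions over 6 libraries, with no test. The differences also depend on how much a member itself varied, so they do not rank closeness between members. The SD of the members on this scale was 0.08 for Ocm and Chrna9, and 0.16 for Chrna10 and Kcnn2. It was 0.19 for Slc26a5, 0.22 for Kcnma1 and 0.24 for Kcna10.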

How the data were processed

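Total RNA of whole cochleae was sequenced in 6 libraries on postnatal day 3, 3 per genotype, grouped by the genotype field. The values the authors deposited are TPM with 2 decimals, a unit read from the values, which sum to 1000000 within rounding in each library. The depth behind them is unknown. The submitters' processing notes name DESeq2 and mm8 without a role. The sources used here do not name an aligner, quantifier or annotation. Symbols came from GENCODE M21, sequences from RefSeq (GRCm38.p6, stretches for 6 of the 7 members) and GENCODE M21.

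The filter kept any feature that reached 1 TPM in 3 or more libraries. Values were transformed to log2(TPM + 1) and tested for genotype with limma 3.58.1 in R 4.3.3 (intensity trend, robust moderation), with Benjamini-Hochberg adjustment over all 17097 features. The fit was tested on simulated data. Single genes also had an exact permutation test. The genes that could be named were the 7 members, the 2 most like each, up to 4 genes of highest mean TPM in each list and, for the channel, receptor, SLC26 and calcium lists, any gene averaging at least 1 TPM in 1 group. Not all of these were named, and which were was chosen with their values seen. Named outside this rule, with values seen, were Chrna6, Kcnmb1, Slc5a7, Rapsn, Chat, Slc18a3, Pou4f3, Myo7a, Smpx, Rbm24, Xirp2, Tmc1, Ikzf2, Neurod6, Syt1, Ckm, Myh11, Cnn1, Plscr5 and the genes that overlap a member. The members and lists were chosen with earlier results of these data known. Alternatives were other pseudocounts (0.1 and 0.5), filters, scalings, variance settings, a replicate block and each library left out.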

Additional observations from a re-analysis of the deposited data

How the results depend on the processing

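The 7 genes stayed uncalled in all 15 alternatives. Of 103 checks on single genes, 93 kept their direction and 10 changed sign, none of them at Kcna10 (log2 fold change from -0.50 to -0.30) or Slc26a5 (from -0.34 to -0.12). With the filter at 5 TPM, Slc26a5 and Kcnma1 were not tested. After the pan hair cell shift the median of the 7 genes was 0.055, and Ocm had 0.055, Chrna9 0.065 and Chrna10 0.027. When single libraries were left out, Kcnn2 ran from -0.062 to 0.157 and changed sign in 4 of 6 cases, Chrna10 ran from -0.1995 to 0.022 (positive without Plscr5-/- replicate 2), and, with wild type replicate 3 left out, Chrna9 and Kcnma1 also changed sign (from -0.117 to 0.0054 and from -0.068 to 0.26 over the 6 cases). The median of the 7 ran from -0.12 to -0.04, and the features called over the whole table ran from 0 to 2 higher and from 0 to 2 lower.

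Against 2 features called lower and 0 higher, there were 0 lower with no filter, 0 without the trend and robust moderation together, 1 lower without mitochondrial and haemoglobin genes, and 1 lower and 1 higher after the pan hair cell shift; the cause was not tested. With the replicate block 0 features were called lower, 0 higher and 0 of the 7, and the adjusted p of Kcna10 was 0.663. Libraries of the same number deviated together with correlations of 0.188, -0.055 and 0.242 across genes, so the numbers were not taken to pair them. TPM keeps no depth, which leaves the counting error of the low genes Slc26a5 and Kcnma1 unknown.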
